A study of Mus musculus with 12 samples.

Results

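The mouse genes Shank3, Dlg1, Dlg4, Homer1, Nlgn1, Nlgn2, Syp and Syn2 encode scaffold, adhesion and vesicle proteins of the synapse. They were taken by symbol from a table of 756 genes measured in hippocampal RNA, and all 8 were present and passed the minimum for testing, a mean of 20 normalized counts over the mice. RNA was measured with a NanoString nCounter panel for mouse neuroinflammation: each transcript is bound by a probe with a colour code, and the codes are counted without amplification. There were 12 mice in 3 groups of 4. The first group was 5xFAD mice given TPPU at 3 mg/kg in the drinking water for 2.5 months from 2 months of age. The second was 5xFAD mice given the vehicle, 1% polyethylene glycol, in which the TPPU was also dissolved. The third was non-transgenic littermates given the same vehicle. 5xFAD mice express mutated human transgenes in neurons from the Thy1 promoter and develop amyloid plaques while young. The compound TPPU inhibits soluble epoxide hydrolase, an enzyme that converts epoxy fatty acids to diols. All mice are labelled male.

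An excitatory synapse holds a dense protein layer beneath the receiving membrane. In it Dlg4 (PSD-95) and its relative Dlg1 (SAP97) tether glutamate receptors, and Shank3 joins these receptor scaffolds to Homer1 and the actin cytoskeleton. Nlgn1 and Nlgn2, neuroligins found mainly at excitatory and at inhibitory synapses, reach across the cleft to neurexins. On the sending side, Syp (synaptophysin) is the classical membrane protein of synaptic vesicles and Syn2 (synapsin II) tethers vesicles in reserve. Synaptophysin and PSD-95 are common markers of synapse loss in Alzheimer's disease research. The abundance of such transcripts in bulk tissue can be lower because fewer neurons are present or because each holds less RNA, and these cannot be told apart here.

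The depth of a mouse was between 1050334 and 1314362 probe counts. The lowest count of any of the 8 genes was 1367 (Shank3, exact 95% Poisson interval 1295 to 1441), an interval that covers counting error only. Ttr, a choroid plexus transcript, was high in vehicle-treated 5xFAD mouse 1 (4269.7 normalized counts) and non-transgenic mouse 4 (16461), against 77.1 to 284 in the other 10 mice. The Y-linked gene Uty was at 366 to 518 in 6 mice, 2 in each group, and at 15.2 to 33.5 in the other 6, which goes against the male label of those with low counts. The neuronal marker list had 4 of its 10 genes in the table (Rbfox3, Tubb3, Nefl and Slc17a7). Their summed level ran from 28530.4 to 41274 in TPPU-treated 5xFAD mice, from 26761 to 38142 in vehicle-treated 5xFAD mice and from 31355 to 39129 in non-transgenic mice. The lowest sum among the 12 mice was thus 26761, and a sum does not give the level of each gene.

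None of the 8 genes passed the test between any pair of groups. The test was limma's linear model over all 12 mice on log2 of the normalized count plus 1, with p-values adjusted by Benjamini-Hochberg over 695 genes and called under 0.05. In vehicle-treated 5xFAD against non-transgenic mice 0 of 8 were called (adjusted p 0.462 to 0.974) where 18.7% of all tested genes were called, 18.7% higher and 0% lower. At an unadjusted p under 0.05 there were 0 of 8, against 29.1% of all genes, 28.1% of all being higher. In TPPU-treated against vehicle-treated 5xFAD mice 0 of 8 were called (adjusted p 0.251 to 0.915), where the same test called 0% of all genes; 1 of the 8, Shank3, had an unadjusted p under 0.05, as did 18.1% of all genes, 1.01% of all being higher. In TPPU-treated 5xFAD against non-transgenic mice 0 of 8 were called (adjusted p 0.309 to 0.962) against 0% of all genes, and Shank3 again was the 1 gene with an unadjusted p under 0.05, against 14.7% of all genes, 13.7% of all being higher. In every comparison the groups overlapped for each of the 8 genes. Over all genes, 21.6% had all 4 vehicle-treated 5xFAD mice above and 0.144% below all 4 non-transgenic mice. The shares were 0.576% and 4.32% for TPPU-treated against vehicle-treated 5xFAD mice, and 6.19% and 0.863% for TPPU-treated 5xFAD against non-transgenic mice. The 3 comparisons share mice, so their values are given side by side and are not independent.

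**Figure D1:**
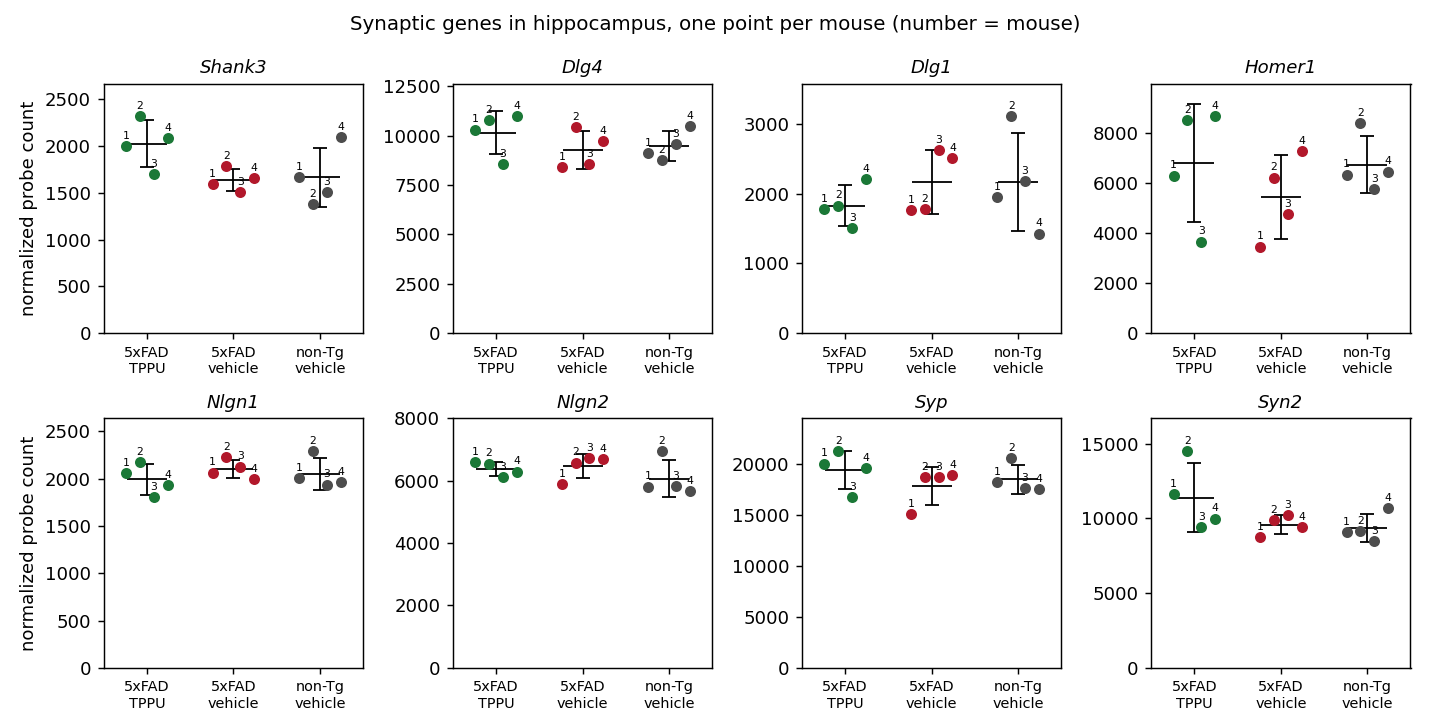
Normalized probe count (y axis, from 0) of the 8 genes in each mouse (points, with the mouse number), by group on the x axis; bars are the mean and SD of 4 mice. The groups overlap in every panel, and Homer1 and Dlg1 spread most between mice of a group.

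Among the postsynaptic scaffolds, Shank3 had 2000.1, 2319, 1701 and 2086 normalized counts in TPPU-treated 5xFAD mice 1 to 4, against 1593, 1784, 1509 and 1653 in vehicle-treated 5xFAD mice and 1671, 1381, 1505 and 2099 in non-transgenic mice. Of the treated mice only mouse 3 lay below the highest vehicle-treated 5xFAD mouse, and non-transgenic mouse 4 lay among the treated values. The mean was 2026 ± 255 in TPPU-treated and 1635 ± 116 in vehicle-treated 5xFAD mice (SD, n = 4 each), 1.23-fold (log2 change 0.30, SE 0.13, 95% interval 0.02 to 0.59, limma adjusted p = 0.251). It was 1 of 7 genes that were higher at an unadjusted p under 0.05 in this comparison. Against non-transgenic mice, with a mean of 1664 ± 313, TPPU-treated mice were 1.23-fold higher in Shank3 (log2 change 0.29, SE 0.13, adjusted p = 0.309). Between vehicle-treated 5xFAD and non-transgenic mice the log2 change was -0.01 (95% interval -0.29 to 0.27).

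Dlg4 had 10301, 10771, 8561 and 10983 normalized counts in TPPU-treated 5xFAD mice, 8407, 10433, 8546 and 9705 in vehicle-treated 5xFAD mice, and 9092, 8752, 9570.0 and 10485 in non-transgenic mice. Treated mouse 3 was low and the other 3 treated mice were high, and the highest mouse of each vehicle-treated group lay among or near those 3. The log2 change was -0.03 (95% interval -0.26 to 0.19) for vehicle-treated 5xFAD against non-transgenic mice and 0.13 (-0.10 to 0.36) for TPPU-treated against vehicle-treated 5xFAD mice.

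Dlg1, the close relative of Dlg4, stood at 1777, 1830.2, 1505 and 2207 normalized counts in TPPU-treated 5xFAD mice, at 1768, 1781, 2626 and 2507 in vehicle-treated 5xFAD mice, and at 1956, 3115, 2185 and 1428 in non-transgenic mice. The non-transgenic group alone held both the highest and the lowest of the 12 mice, a 2.18-fold range. The log2 change was 0.03 (95% interval -0.45 to 0.51) for vehicle-treated 5xFAD against non-transgenic mice and -0.23 (-0.72 to 0.25) for TPPU-treated against vehicle-treated 5xFAD mice. The log2 ratio of Dlg1 to Dlg4 within a mouse, which cancels the scale of the array, averaged -2.48 ± 0.11 in TPPU-treated 5xFAD, -2.11 ± 0.37 in vehicle-treated 5xFAD and -2.18 ± 0.57 in non-transgenic mice (SD, n = 4 each). The difference between both 5xFAD groups was -0.36 (exact two-sided permutation p = 0.114, adjusted 0.482 over 9 ratio tests; 4 against 4 mice cannot go below 0.0286).

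Homer1 was the most variable of the 8. It stood at 6297, 8520.3, 3654 and 8673 normalized counts in TPPU-treated 5xFAD mice, at 3456, 6216, 4768 and 7288 in vehicle-treated 5xFAD mice, and at 6332, 8403, 5761 and 6454 in non-transgenic mice. Treated mouse 3 and vehicle-treated 5xFAD mice 1 and 3 were below all non-transgenic mice, while the other 5xFAD mice lay within or above the non-transgenic range. Its SD within groups was 0.45 log2, larger than that of 82.7% of tested genes. The means were 5432 ± 1674 in vehicle-treated 5xFAD and 6738 ± 1151 in non-transgenic mice (SD, n = 4 each; log2 change -0.35, 95% interval -0.97 to 0.27, limma adjusted p = 0.462), and 6786 ± 2354 in TPPU-treated 5xFAD mice (log2 change against vehicle-treated 5xFAD mice 0.30, 95% interval -0.32 to 0.92). Single mice moved these changes: without vehicle-treated 5xFAD mouse 1 they were -0.15 against non-transgenic mice and 0.10 for TPPU-treated against vehicle-treated 5xFAD mice. The change with TPPU was 0.57 without treated mouse 3, and 0.16 and 0.15 without treated mice 2 and 4. Short and long Homer1 isoforms have different roles, the short one being induced by neuronal activity and loosening the scaffold, and the labels and files do not name the isoforms that the probe reads.

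The promoters of Homer1 and Dlg1 are shown because these genes had the largest SD within groups of the 8. Each is the 250 bases before the most upstream start site listed in RefSeq's promoter table (GRCm38.p6), in which all 8 genes matched. For Shank3 and Nlgn1 RefSeq's gene record begins upstream of the listed start, so those windows lie inside the gene and are not shown. Capitals mark TGACGT, the core of the cAMP response element that CREB binds, and GGGCGG, the GC box that Sp1 binds, on either strand.
Homer1 promoter, chr13:93303507-93303756, plus strand: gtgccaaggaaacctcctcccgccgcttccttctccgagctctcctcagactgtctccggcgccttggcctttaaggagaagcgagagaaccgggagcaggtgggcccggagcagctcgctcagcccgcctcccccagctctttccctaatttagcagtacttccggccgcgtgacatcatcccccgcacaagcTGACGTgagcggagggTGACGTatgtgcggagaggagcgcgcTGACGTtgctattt
Dlg1 promoter, chr16:31663193-31663442, plus strand: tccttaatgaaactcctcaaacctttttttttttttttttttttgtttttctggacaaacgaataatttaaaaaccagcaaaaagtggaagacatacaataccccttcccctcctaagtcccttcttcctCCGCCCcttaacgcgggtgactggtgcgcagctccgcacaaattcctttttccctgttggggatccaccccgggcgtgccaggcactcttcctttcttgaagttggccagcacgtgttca
The motifs were chosen with these sequences in view. The Homer1 window held TGACGT 3 times, and the windows of the other 7 genes, that of Shank3 and Nlgn1 included, held it 0 times. For comparison, 32851 windows were taken from every listed start, not only the most upstream of a gene (Dlg1 has 4 starts and Homer1 2). Of these windows, 6.47% held TGACGT at least once and 0.152% at least 3 times. The palindrome TGACGTCA counts once for each strand of the shorter motif, and the Homer1 window did not hold it. The Dlg1 window held GGGCGG once, as 32.7% of windows held it at least once, and the Homer1 window held it 0 times. The Nlgn2 window held it 3 times (8.47% of windows held it at least 3 times), those of Syp and Syn2 2 times each (16.7% held it at least 2 times) and that of Dlg4 0 times. G and C made up 62.4% of the Homer1 and 46% of the Dlg1 window, against a median of 52.4% over all windows. These are matches of letters, not measured binding.

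The neuroligins were the steadiest. Nlgn1 had 2062, 2173, 1802 and 1934 normalized counts in TPPU-treated 5xFAD mice, 2063, 2226, 2127 and 1993 in vehicle-treated 5xFAD mice, and 2002, 2294, 1937 and 1964 in non-transgenic mice. Nlgn2 had 6585, 6547, 6105 and 6293 in TPPU-treated 5xFAD mice, 5887, 6582, 6734 and 6698 in vehicle-treated 5xFAD mice, and 5810.4, 6957, 5838 and 5678 in non-transgenic mice. The low Nlgn1 mouse was treated mouse 3 and the high one non-transgenic mouse 2, which was also the highest in Nlgn2, and the groups overlapped. Highest over lowest mouse was 1.27-fold for Nlgn1 and 1.23-fold for Nlgn2, and 8.49% and 6.91% of tested genes had a smaller SD within groups. For vehicle-treated 5xFAD against non-transgenic mice the 95% interval of the log2 change was -0.14 to 0.21 for Nlgn1 and -0.08 to 0.27 for Nlgn2. For TPPU-treated against vehicle-treated 5xFAD mice it was -0.25 to 0.10 for Nlgn1 and -0.19 to 0.16 for Nlgn2. The log2 ratio of Nlgn1 to Nlgn2 was -1.68 ± 0.07 in TPPU-treated 5xFAD and -1.56 ± 0.04 in non-transgenic mice (SD, n = 4 each), a difference of -0.12 (exact two-sided permutation p = 0.0857, adjusted 0.482), with -1.62 ± 0.10 in vehicle-treated 5xFAD mice.

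Of the vesicle genes, Syp had 20074, 21333, 16821 and 19614 normalized counts in TPPU-treated 5xFAD mice, 15123, 18736, 18745 and 18966 in vehicle-treated 5xFAD mice, and 18229.8, 20595, 17687 and 17573 in non-transgenic mice. Vehicle-treated 5xFAD mouse 1 was the lowest of all 12, while the other 3 mice of its group lay inside the non-transgenic range. The log2 change was -0.05 (95% interval -0.28 to 0.18, limma adjusted p = 0.818) for vehicle-treated 5xFAD against non-transgenic mice and 0.12 (-0.11 to 0.35, adjusted p = 0.554) for TPPU-treated against vehicle-treated 5xFAD mice.

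Syn2 stood at 11645, 14526, 9429 and 9991 normalized counts in TPPU-treated 5xFAD mice, at 8755, 9906, 10225 and 9440.3 in vehicle-treated 5xFAD mice, and at 9067, 9157, 8461 and 10685 in non-transgenic mice. Treated mice 1 and 2 were above all 8 vehicle-treated mice, and treated mice 3 and 4 were within their range. The means were 11398 ± 2288 in TPPU-treated and 9581 ± 638 in vehicle-treated 5xFAD mice (SD, n = 4 each), a log2 change of 0.23 (SE 0.13, limma adjusted p = 0.366). Against the non-transgenic mean of 9343 ± 947 the log2 change in TPPU-treated mice was 0.27 (SE 0.13, adjusted p = 0.353), and between vehicle-treated 5xFAD and non-transgenic mice it was 0.04 (95% interval -0.24 to 0.32). Without treated mouse 2 the changes in TPPU-treated mice were 0.11 against vehicle-treated 5xFAD and 0.15 against non-transgenic mice. The log2 ratio of Syn2 to Syp differed by 0.20 between TPPU-treated 5xFAD and non-transgenic mice (-0.79 ± 0.17 and -0.99 ± 0.19, SD, n = 4 each; exact two-sided permutation p = 0.2, adjusted 0.482). None of the 9 ratio tests, of 3 gene pairs in 3 comparisons, passed.

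For the other 6 genes the log2 changes of TPPU-treated 5xFAD against non-transgenic mice were closer to 0 than those of Shank3 and Syn2. They were 0.10 for Dlg4 (95% interval -0.13 to 0.32), -0.20 for Dlg1 (-0.68 to 0.28) and -0.05 for Homer1 (-0.68 to 0.57). For Nlgn1 it was -0.04 (-0.22 to 0.13), for Nlgn2 0.08 (-0.10 to 0.25) and for Syp 0.07 (-0.16 to 0.30).

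The sign of several small changes depended on the scale of the arrays. The median log2 change of all 695 genes on the deposited scale was 0.13 for vehicle-treated 5xFAD against non-transgenic mice, beside 0.01 for the 8 genes, and -0.12 for TPPU-treated against vehicle-treated 5xFAD mice, beside 0.13 for the 8. Array medians lay 0.28 log2 higher in vehicle-treated 5xFAD than in non-transgenic mice, and 0.20 lower in TPPU-treated than in vehicle-treated 5xFAD mice (shift -0.20). Centring every array on its own median took these shifts out of each change. On the deposited scale 4 of 8 genes were below 0 in vehicle-treated 5xFAD against non-transgenic mice (27.8% of all genes), and 3 of 8 in TPPU-treated against vehicle-treated 5xFAD mice (70.4% of all genes). After centring, all 8 genes were below 0 in vehicle-treated 5xFAD against non-transgenic mice (median -0.27, all genes -0.15), as were 62.2% of all genes. Syp then had the smallest p of the 8 (log2 change -0.34, 95% interval -0.62 to -0.05, limma adjusted p = 0.0743), in a fit that called 27.3% of all genes, 14.7% higher and 12.7% lower. It was the 1 gene of 8 with an unadjusted p under 0.05, against 43.2% of all genes. In TPPU-treated against vehicle-treated 5xFAD mice, 7 of 8 were then above 0 and 1 below (median 0.33, all genes 0.08), where 37.7% of all genes were below. The values included Shank3 at 0.51 (95% interval 0.13 to 0.88, adjusted p = 0.168) and Syn2 at 0.43 (adjusted p = 0.183); 0% of genes were called there. Unadjusted p was under 0.05 for 4 of 8 (Shank3, Syn2, Syp and Dlg4), against 23.9% of all genes. Dlg1 was the gene below 0 (-0.03). In TPPU-treated 5xFAD against non-transgenic mice 5 of 8 were below 0 after centring (54.4% of all genes) and 3 on the deposited scale (37% of all genes), and 0 of 8 had an unadjusted p under 0.05 after centring, against 15.5% of all genes. Both scales gave 0 of 8 called in all 3 comparisons. The deposited factors per mouse also differed, running 1.03 to 1.09 with TPPU, 0.946 to 1.10 in 5xFAD mice on vehicle, and 0.871 to 0.993 without the transgenes, and their part in these signs was not tested. Of microglial markers 8 of 8 tested were called higher in vehicle-treated 5xFAD mice, with a summed level of 5792 to 18841 in TPPU-treated and 13534 to 30436 in vehicle-treated 5xFAD mice against 4905 to 5946 in non-transgenic mice. In that comparison 1 of 6 astrocyte, 0 of 8 oligodendrocyte, 0 of 6 endothelial and 0 of 4 neuronal markers were called, and the part of any cell type in the values of the 8 genes was not tested.

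**Figure D2:**
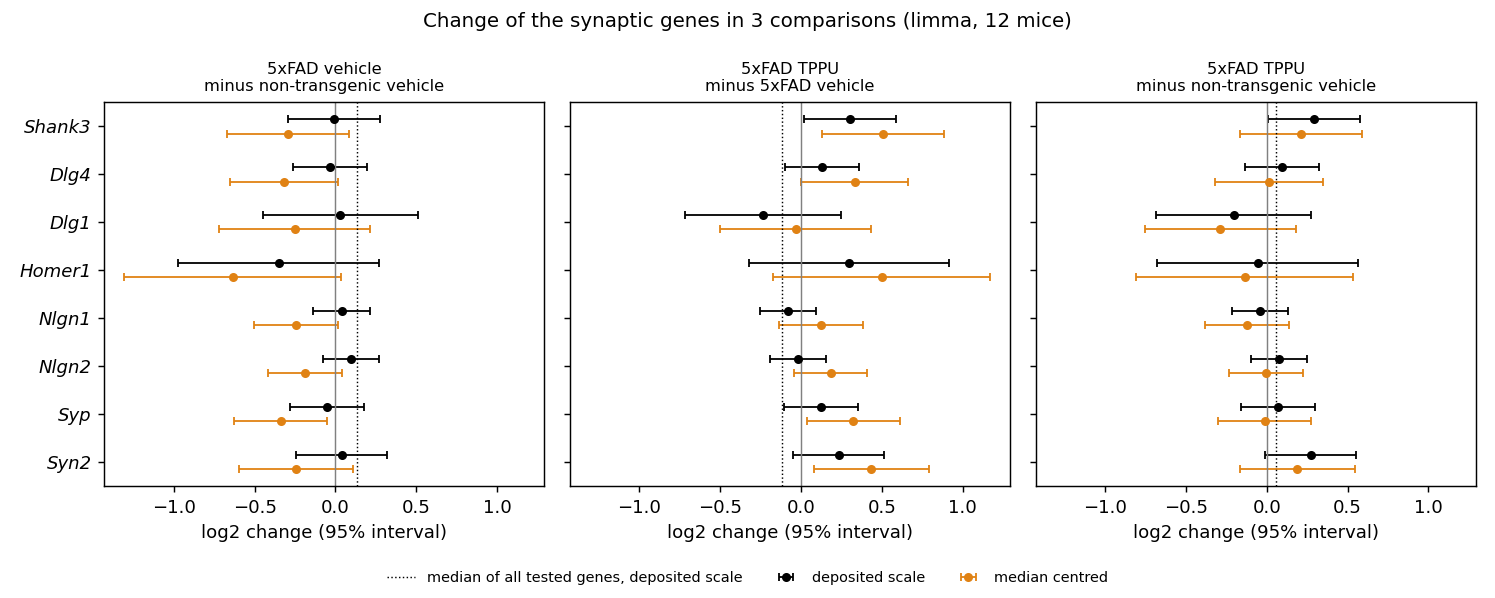
Log2 change (x axis, points) with its 95% interval (bars) for the 8 genes (y axis) in the 3 comparisons, on the deposited scale in black and after median centring in orange. The dotted line is the median change of all tested genes on the deposited scale; centring moves all 8 points left in vehicle-treated 5xFAD minus non-transgenic mice and right in TPPU-treated minus vehicle-treated 5xFAD mice.

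The same comparisons in other synaptic and neuronal genes also gave no calls. Tested were 6 of 28 other presynaptic genes listed, 8 of 34 other postsynaptic, 4 of 11 activity-regulated and 9 of 24 neuronal identity genes. The rest of each list was not in the table of measured genes. On the deposited scale limma called 0 of the tested genes of each list in every comparison. Over all tested genes it called 18.7% in vehicle-treated 5xFAD against non-transgenic mice and 0% in each comparison with TPPU-treated mice. Their median log2 changes for vehicle-treated 5xFAD against non-transgenic mice were -0.10, -0.02, -0.27 and -0.04 in that order of lists, against 0.13 over all genes. For TPPU-treated against vehicle-treated 5xFAD mice they were 0.19, 0.08, 0.22 and 0.02, against -0.12 over all genes. For TPPU-treated 5xFAD against non-transgenic mice they were 0.05, 0.03, -0.04 and -0.02, against 0.06 over all genes.

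Genes of these lists with the smallest p are given with their log2 change and limma's adjusted p. In vehicle-treated 5xFAD against non-transgenic mice, Bdnf, the neurotrophin released at active synapses, averaged 817 ± 355 in vehicle-treated 5xFAD and 1237 ± 162 normalized counts in non-transgenic mice (SD, n = 4 each; log2 change -0.70, limma adjusted p = 0.087). Also listed there were the immediate early gene Fos (0.72, 0.452), the neuronal trafficking GTPase Rab6b (-0.22, 0.266), the vesicular glutamate transporter Slc17a7 (-0.14, 0.716), the metabotropic receptor Grm3 (-0.16, 0.646) and the calmodulin-binding Nrgn (-0.10, 0.797). The identity genes were Reln, an extracellular protein of interneurons (0.32, 0.241), and the tubulin Tubb4a (-0.26, 0.279). After median centring Bdnf (-0.98, adjusted p = 0.0209), Rab6b (-0.50, 0.0363) and Tubb4a (-0.55, 0.0193) were called lower in vehicle-treated 5xFAD mice by limma. That was 1 of 6 presynaptic, 0 of 8 postsynaptic, 1 of 4 activity-regulated and 1 of 9 identity genes, where 12.7% of all genes were called lower. On the deposited scale 0% of all genes were called lower in this comparison. There Bdnf was at 445, 1002, 605 and 1218 normalized counts in vehicle-treated 5xFAD mice 1 to 4. It was at 1312, 1038, 1184 and 1413 in non-transgenic mice 1 to 4, so the groups overlapped.

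In TPPU-treated against vehicle-treated 5xFAD mice, the genes named were the neuronal pentraxin Nptx1 (log2 change 0.40, limma adjusted p = 0.325), Grm2, a metabotropic glutamate receptor (-0.47, 0.283), the AMPA receptor subunit Gria1 (0.31, 0.536), Bdnf (0.58, 0.270), Egr1 (0.22, 0.775), Tubb4a (0.25, 0.413) and the interneuron transcription factor Dlx1 (-0.27, 0.467). None of these was called. In TPPU-treated 5xFAD against non-transgenic mice the genes were Nptx1 (0.32, 0.564), Grm2 (-0.45, 0.399), the NMDA receptor subunit Grin2b (0.18, 0.706), Fos (0.60, 0.750), Bdnf (-0.12, 0.891), Dlx1 (-0.24, 0.659) and the neurofilament Nefl (0.14, 0.750).

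Across the 12 mice, of the 28 pairs of the 8 genes, 23 correlated above 0 and 5 below on the log2 deposited scale. The pairs furthest above 0 were Homer1 with Syp (Pearson r = 0.85, permutation p = 0.00046, adjusted 0.0129; Spearman rho = 0.74, permutation p = 0.00786, adjusted 0.0561), Shank3 with Dlg4 (r = 0.82, permutation p = 0.00162, adjusted 0.0151; rho = 0.78, p = 0.00415, adjusted 0.0561) and Shank3 with Syn2 (r = 0.79, permutation p = 0.00104, adjusted 0.0146; rho = 0.74, p = 0.00802, adjusted 0.0561). These were the 3 pairs of 28 that passed by r, and 0 passed by rho. Without the 2 mice furthest from the median of the first gene the 3 values of r were 0.65, 0.76 and 0.63, and after subtraction of each group's mean 0.87, 0.80 and 0.67. Shank3 and Dlg1 had r = -0.59 (permutation p = 0.0437, adjusted 0.122; rho = -0.55, p = 0.0666, adjusted 0.186), the value furthest below 0, and it moved to -0.16 after median centring. The median r over the 28 pairs was 0.74 after centring and 0.40 on the deposited scale, while the median over all pairs of tested genes was 0.05 after centring and 0.17 before. After centring 27 of 28 pairs were above 0, and the 3 lowest r all involved Dlg1. Centring takes the array median, 8.37 to 8.91 log2 over the mice, from every gene of a mouse. Genes that vary little thereby gain a shared term. Nlgn1 with Dlg4 moved from 0.04 to 0.76, while Nlgn2 with Dlg1 moved from 0.63 to 0.56. The part of this term in the values after centring was not tested.

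**Figure D3:**
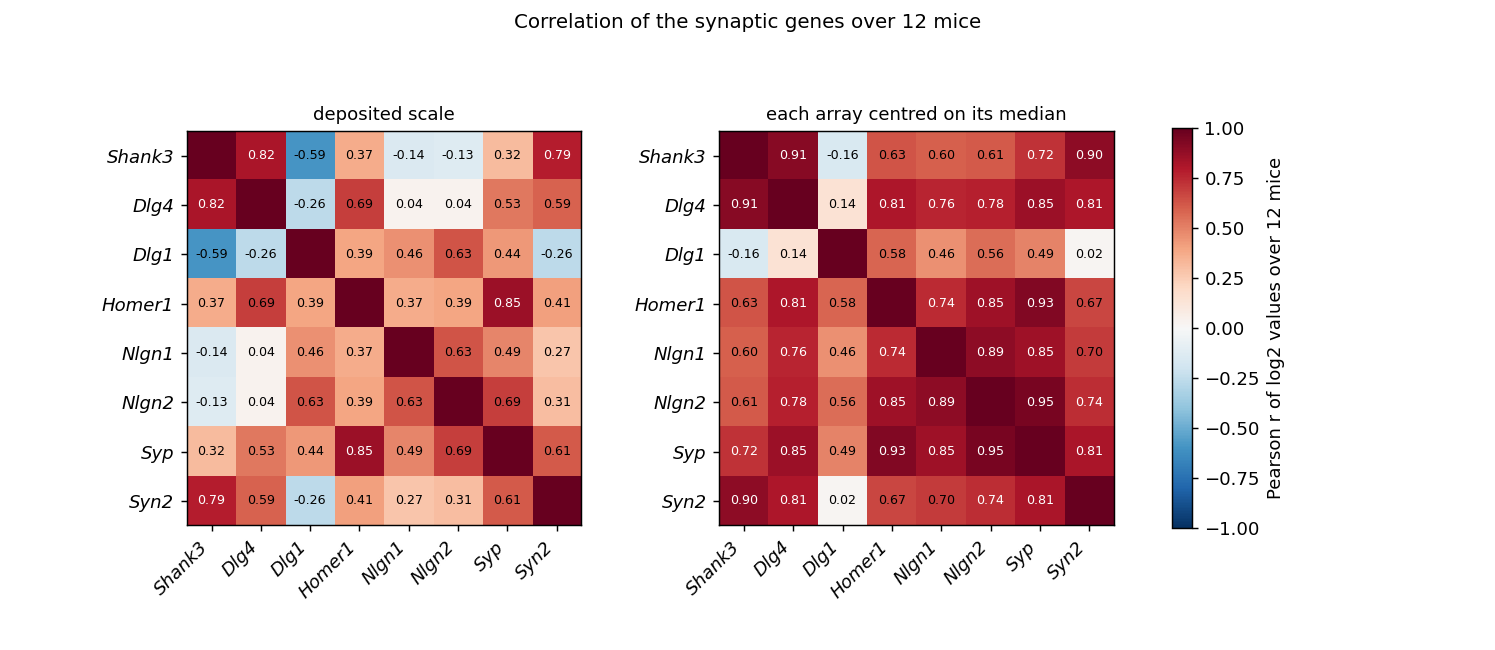
Pearson r of log2 values over 12 mice for each pair of the 8 genes (rows and columns, colour from -1 in blue to 1 in red, values printed), on the deposited scale at left and after median centring at right. Dlg1 runs against Shank3 (r = -0.59) at left. At right it is the gene with the lowest values, and the other 7 genes correlate with each other above 0. Centring itself puts a shared term into all genes of a mouse.

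Shank3 ran against Slc17a6, the vesicular glutamate transporter VGLUT2, which is abundant in thalamus and other subcortical neurons and low in most hippocampal pyramidal cells, whose main transporter is Slc17a7. Slc17a6 was chosen after its values were seen, so the p-values of its relations are not independent evidence. It spread widely within each group, at 528 to 4587 normalized counts in TPPU-treated 5xFAD, 1058 to 3186 in 5xFAD mice on vehicle, and 474 to 2719 in non-transgenic mice, and was not called by limma between vehicle-treated 5xFAD and non-transgenic mice (log2 change 0.39, SE 0.67, adjusted p = 0.788) or between TPPU-treated and vehicle-treated 5xFAD mice (-0.40, SE 0.67, adjusted p = 0.781). In each of the 3 groups the 4 mice ordered by increasing Slc17a6 were ordered by decreasing Shank3. Over 12 mice the correlation was r = -0.80 (permutation p = 0.00183, adjusted 0.0244 over 40 relations; rho = -0.78, p = 0.00406, adjusted 0.0812), and r = -0.61 without the 2 mice furthest from the median of Slc17a6. After subtraction of the group means r was -0.97, the largest in size that Shank3 had with any of the 694 other tested genes; after median centring it was -0.74. Treated mouse 3, with the most Slc17a6 of all mice, had the least Shank3 of its group (1701), which was still above the Shank3 of the 4 mice next in Slc17a6 (1381 to 1593).

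Dlg4 also ran against Slc17a6 (r = -0.82, permutation p = 0.00091, adjusted 0.0182; rho = -0.83, p = 0.00163, adjusted 0.0652; -0.81 without the 2 furthest mice and -0.85 within groups), whereas Dlg1 had r = 0.37 (permutation p = 0.231, adjusted 0.401). Syn2 (r = -0.62, permutation p = 0.0302, adjusted 0.101) and Homer1 (r = -0.58, permutation p = 0.0495, adjusted 0.141) also ran against it but did not pass. Within groups they had r = -0.72 and -0.55, and without the 2 furthest mice -0.25 and -0.59. For Syp r was -0.33, for Nlgn1 -0.19 and for Nlgn2 0.18. The cause of the spread in Slc17a6 was not tested.

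Homer1 and Syp correlated above 0 with Arc and Egr1. With Arc, an immediate early gene that acts at the postsynaptic density, r was 0.81 for Homer1 (permutation p = 0.00328, adjusted 0.0262; rho = 0.59, p = 0.0452, adjusted 0.201) and 0.85 for Syp (permutation p = 0.00045, adjusted 0.018; rho = 0.71, p = 0.0129, adjusted 0.0939). With the immediate early transcription factor Egr1, r was 0.80 for Homer1 (permutation p = 0.00294, adjusted 0.0262) and 0.76 for Syp (permutation p = 0.00553, adjusted 0.0356). The relations of Homer1 with both genes, and that of Syp with Egr1, rested on TPPU-treated mouse 3 and vehicle-treated 5xFAD mouse 1, which had the lowest Arc (2243 and 1581 normalized counts, against 3105 to 6282 in the other 10 mice) and the lowest Homer1. Without both, r with Arc was 0.32 for Homer1 and 0.55 for Syp, and r with Egr1 was 0.27 and 0.09. Of the 40 relations of the 8 genes with Slc17a6, Arc, Egr1, Fos and Bdnf, 9 passed by r and 0 by rho. The others that passed were Dlg4 with Bdnf (r = 0.67, permutation p = 0.00623, adjusted 0.0356), Homer1 with Bdnf (r = 0.73, permutation p = 0.0106, adjusted 0.0497) and Nlgn2 with Fos (r = 0.71, permutation p = 0.0112, adjusted 0.0497). Without the 2 mice furthest from the median of Bdnf or Fos these were 0.47, 0.45 and 0.57. Homer1 with Fos (r = 0.25, permutation p = 0.428, adjusted 0.602), Syp with Fos (r = 0.63, permutation p = 0.0255, adjusted 0.101) and Syp with Bdnf (r = 0.53, permutation p = 0.0789, adjusted 0.186) did not pass.

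**Figure D4:**
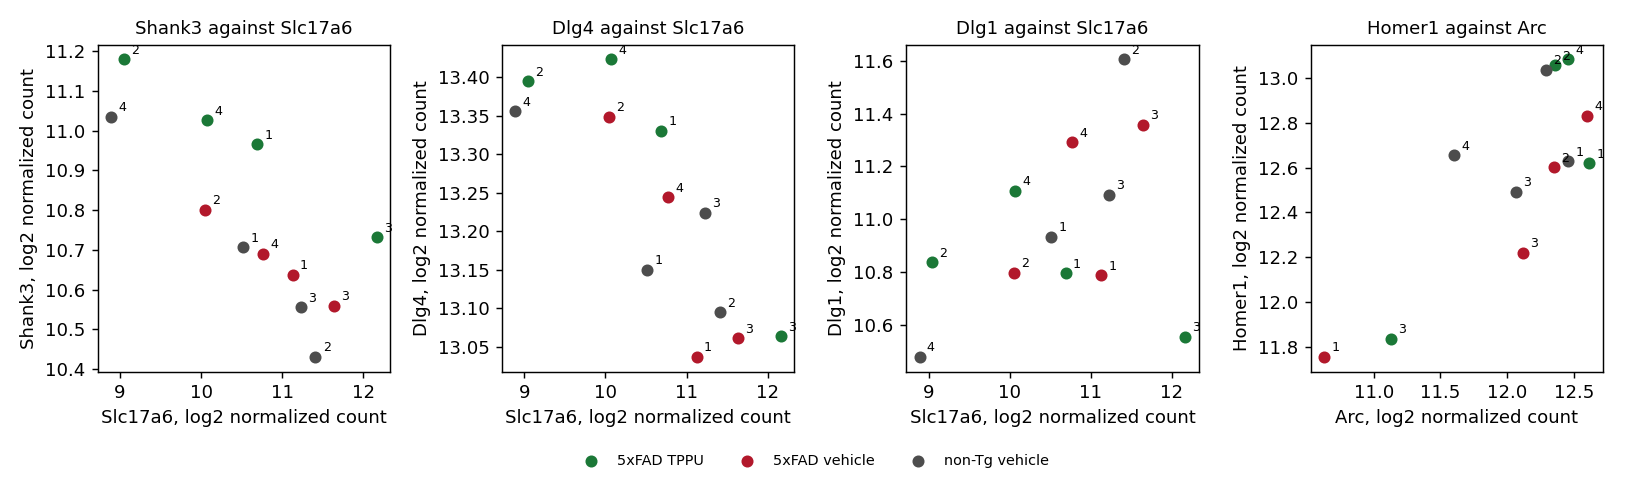
Log2 normalized counts of Shank3, Dlg4 and Dlg1 (y axes) against Slc17a6, and of Homer1 against Arc (x axes), 1 point per mouse with its number, coloured by group. Shank3 is lower where Slc17a6 is higher in each group, Dlg4 likewise across all mice (r = -0.82), Dlg1 has r = 0.37, and 5xFAD vehicle mouse 1 and TPPU mouse 3 stand apart at low Arc and Homer1.

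The genes whose levels over the 12 mice were most like each of the 8 are given as a description, since they were picked from 694 others. Shank3 was nearest to Rtn4rl1, a Nogo receptor relative (r = 0.94, rho = 0.93), and Nptx1, a neuronal pentraxin that clusters AMPA receptors (0.91, 0.92). Dlg1 was nearest to Clstn1, a postsynaptic calsyntenin (r = 0.94, rho = 0.88), and the tubulin regulator Stmn1 (0.92, 0.89). Dlg4 was nearest to Ppp3cb, a catalytic subunit of calcineurin (r = 0.84, rho = 0.85), and Cd6 (0.84, 0.87). Homer1 was nearest to Lingo1, a neuronal surface protein of the Nogo receptor complex (r = 0.97, rho = 0.94), and the neuronal chemokine Cx3cl1 (0.93, 0.87), and Syp was nearest to Ldha, lactate dehydrogenase A (r = 0.91, rho = 0.80), and again Lingo1 (0.91, 0.79). Syn2 was nearest to the signalling adaptor Traf3 (r = 0.86, rho = 0.82). Nlgn1 was nearest to Prkdc, a DNA repair kinase (r = 0.84, rho = 0.87), and the autophagy gene Rb1cc1 (0.82, 0.71), and Nlgn2 to Vps4a, an endosomal sorting ATPase (0.89, 0.87), and Prkar1a, a protein kinase A subunit (0.86, 0.88). After median centring r for these pairings ran from 0.75, for Nlgn1 with Prkdc, to 0.98, for Homer1 with Lingo1.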

How the data were processed

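Per the labels' protocols, the authors scaled nCounter probe counts by the geometric mean of 10 housekeeping genes, and the deposited signal values are on a linear scale. The table used here holds 0 of those genes; software, background subtraction and probe sequences: not given in the sources used here. Dividing by a single factor for each mouse left whole numbers (100% of values within 0.01), which gave the depth.

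Limma 3.58.1 in R 4.3.3, with a mean trend in the prior variance, was run on log2 values (pseudocount 1) for 695 genes averaging at least 20, leaving out 61. Whether mice came from separate litters is not stated. Ratios were compared with exact permutation tests over 70 arrangements, and correlations with 100000 permutations in Python 3.11.15. After subtraction of each gene's group mean, same-numbered mice of different groups correlated at -0.37 to 0.39 over 12 pairings, 6 of them over 0.1. Whether the number marks a pairing cannot be told from these values. The labels state no pairing, so the number was taken as a name only.

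The 8 genes, the other lists and the rules were chosen with earlier results of these data known. Named genes were all 8, the called members of each list or the 2 with the smallest p, and the 2 genes nearest to each of the 8; a gene that the rule names is not reported here. Uty, Ttr, Slc17a6 and, as a partner of Dlg1, Gria1 were chosen after their values were seen. Alternatives were other pseudocounts, filters, scalings, variance models, blocks and fits without single mice; voom weights and Slc17a6 as a covariate were added after seeing the data.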

Additional observations from a re-analysis of the deposited data

Results flagged for a closer look

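Syp in vehicle-treated 5xFAD mouse 1, at 15123 normalized counts, lay far below the other 3 mice of its group (18736 to 18966). Without it, the log2 change of Syp was 0.03 for vehicle-treated 5xFAD against non-transgenic mice and 0.04 for TPPU-treated against vehicle-treated 5xFAD mice. Nlgn2 in non-transgenic mouse 2, at 6957, lay far above the other 3 (5678 to 5838), and without it the log2 change for vehicle-treated 5xFAD against non-transgenic mice was 0.16 (limma adjusted p = 0.144). Of 24 groups of 4 mice (8 genes in 3 groups), these 2 had a mouse this far from its neighbours; chance flags about 1 in 20.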

How the results depend on the processing

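None of the 8 genes was called in any of the 3 comparisons under any alternative run, with or without single mice. The Shank3 log2 change for TPPU-treated against vehicle-treated 5xFAD mice stayed between 0.23 and 0.51 over 15 alternatives (limma adjusted p 0.0947 to 0.341). The lowest adjusted p came with Slc17a6 as a covariate, a gene chosen with its relation to Shank3 known. Over 8 fits without a single mouse the Shank3 change ran from 0.24 to 0.38. The lowest limma adjusted p there was 0.0901, without TPPU-treated mouse 3. For TPPU-treated 5xFAD against non-transgenic mice the lowest limma adjusted p of Shank3 was 0.0689 (log2 change 0.29), again with that covariate. Changes near 0 turned sign in 23 of 360 refits; the cause was not tested. For vehicle-treated 5xFAD against non-transgenic mice, median centring gave Dlg1 -0.25, Nlgn1 -0.24, Nlgn2 -0.19 and Syn2 -0.24. Quantile normalization gave Dlg1 -0.13, Nlgn1 -0.16 and Syp 0.0014. CPM scaling gave Dlg1 -0.030, Nlgn1 -0.022 and Syn2 -0.022. Without both mice with high Ttr, Shank3 was 0.12, Dlg1 -0.061, Dlg4 0.061 and Syp 0.0015. With Slc17a6 as a covariate, Shank3 was 0.057, Dlg1 -0.014 and Dlg4 0.010. For TPPU-treated against vehicle-treated 5xFAD mice, median centring gave Nlgn1 0.12 and Nlgn2 0.18, and quantile normalization Nlgn1 0.022. For TPPU-treated 5xFAD against non-transgenic mice, median centring gave Nlgn2 -0.0057 and Syp -0.013, and quantile normalization Nlgn2 -0.013. Without single mice, the first comparison ranged from -0.15 to 0.22 for Dlg1, -0.092 to 0.016 for Dlg4, -0.094 to 0.11 for Shank3, -0.0066 to 0.11 for Syn2 and -0.083 to 0.026 for Syp. The second ranged from -0.064 to 0.0018 for Nlgn2, -0.33 to -0.14 for Dlg1 (lowest without TPPU-treated mouse 4, highest without vehicle-treated 5xFAD mouse 3), and 0.085 to 0.21 for Dlg4 and 0.043 to 0.19 for Syp (both lowest without vehicle-treated 5xFAD mouse 1 and highest without TPPU-treated mouse 3), and the third from -0.20 to 0.22 for Homer1 and -0.083 to 0.015 for Nlgn1. The Dlg1 to Dlg4 ratio of vehicle-treated 5xFAD against non-transgenic mice was 0.06, ranged from -0.17 to 0.29 without single mice and was -0.12 without both mice with high Ttr. Limma called 130 genes higher and 0 lower in the first comparison on the deposited scale, 102 and 88 after median centring and 80 and 104 after quantile normalization, and 95 to 147 without single mice. In the second it called 0, and 0 to 39 without single mice, the 39, all lower, without TPPU-treated mouse 3. In the third it called 0, and 0 to 60 without single mice, the 60 without TPPU-treated mouse 2. With mouse number as a replicate block limma called 125, 0 and 0 genes, none of them among the 8, and the ratio differences kept adjusted p values of 0.5625 to 1. Planned count-model tests (edgeR and DESeq2) were not run; limits come from 4 mice per group and from the scale.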

Other observations

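Dlg1 and Gria1, the gene for the AMPA receptor subunit that Dlg1 is known to bind, stood at opposite ends in the non-transgenic group. Gria1 was looked at in this respect after its values were seen. Non-transgenic mouse 4 had the lowest Dlg1 of the 12 mice (1428 normalized counts) and the highest Gria1 (11160), and mouse 2 had the highest Dlg1 (3115) and the lowest Gria1 (4689). TPPU-treated mouse 3, with the next lowest Dlg1 (1505), had 8439 of Gria1, less than treated mice 1 and 2 (9857 and 10421). Treated mouse 4 had the most Dlg1 of its group (2207) and the least Gria1 (8096). In vehicle-treated mice with the transgenes, mice 3 and 4 had more Dlg1 (2626 and 2507) than mice 1 and 2 (1768 and 1781). Their Gria1 was lower, at 5672 and 6303 against 8008 and 10470.5. Clstn1, nearest to Dlg1 in pattern, stood at 6919 and 11886 in non-transgenic mice 4 and 2. Non-transgenic mouse 4 also had high Ttr (16461) and the lowest Slc17a6 of the 12 mice (474). Non-transgenic mouse 2 had the most Slc17a6 of its group (2719). The relation of Dlg1 to Gria1 over the 12 mice was not tested, nor was the part of Ttr or Slc17a6 in it.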
